A study of Mus musculus with 7 samples.

Results

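The 10 genes of distal nephron salt and water handling, Umod, Egf, Slc12a1, Kcnj1, Slc12a3, Calb1, Scnn1b, Scnn1g, Aqp2 and Aqp3, were read from RNA sequencing of isolated mouse glomeruli. They were taken by symbol from a written list, not by their measured values, and 10 of 10 were present among the 12958 gene rows of each library. The knockdown group was 3 male BALB-C mice with an siRNA transgene against Shroom3, a gene of an actin-binding junction protein. The control group was 4 littermates lacking the transgene. Both groups were put on doxycycline chow and water at 8 weeks of age, stayed on it for 6 weeks and were studied at 14 weeks. Glomeruli were isolated by bead perfusion, magnet and sieve, a preparation in which some tubule fragments can remain. The promoter that drives the transgene is not given in the sources used here. One library was made per animal, and the values are log2 expression, with no read counts from which a depth could be given. Sample titles began with G in 5 libraries (2 knockdown and 3 control) and with CB6 in 1 knockdown and 1 control library; what the titles stand for is not given.

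Filtrate leaves the glomerulus, passes the proximal tubule and the loop, and reaches the distal nephron, where salt and water recovery is set. In the thick ascending limb the cotransporter Slc12a1 takes up sodium, potassium and chloride, and the channel Kcnj1 returns potassium to the lumen so that uptake can go on. The distal convoluted tubule takes up sodium chloride through Slc12a3. The connecting tubule and collecting duct use the epithelial sodium channel under aldosterone, and water channels under vasopressin. In whole tissue, fewer cells of a type and less RNA per cell cannot be told apart, so each value below is a level in the preparation and not per cell.

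The preparation carried abundant distal tubule transcript beside its glomerular RNA. Divided by exon length and averaged over the 7 libraries, Umod ranked 13 of 12680 genes with one matching GENCODE gene, at a log2 level per kilobase of 13.81 ± 0.17 (SD, n = 7). Nphs1, which encodes nephrin of the podocyte slit diaphragm, ranked 802 at 9.81 ± 0.17, and Slc34a1, the proximal phosphate transporter, ranked 52 at 12.47 ± 0.26 on the same scale (SD, n = 7 each). Together the 10 distal genes made up 0.678, 0.806 and 0.812% of the summed expression in the knockdown libraries and 0.637, 0.791, 0.813 and 0.676% in the control libraries, ranges that overlap. A list of 22 podocyte markers made up 1.89 to 2.18% in knockdown and 1.80 to 2.44% in control libraries. Nphs1 alone therefore does not stand for the glomerular RNA. The transcript of the targeted gene did not separate the groups: Shroom3 had log2 expression of 10.80, 10.91 and 10.89 in knockdown libraries against 10.94, 10.85, 11.36 and 11.06 in control libraries (a log2 fold change of -0.19 with adjusted p = 0.417 by limma with Benjamini-Hochberg). Groups are therefore named as labelled.

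RefSeq held promoter windows for 9 of the 10 genes on GRCm38.p6. Those of the 4 thick ascending limb genes are shown because they include Kcnj1 and Egf, the 2 genes with the smallest p, and the genes of the 3 pairs whose groups did not overlap. Each window runs 5′ to 3′ on the gene's strand, and capitals mark the 50 bases from the annotated start onward. The Umod window is chr7:119479213-119479512 on the minus strand, the Egf window shown chr3:129755273-129755572 on the minus strand, the Slc12a1 window chr2:125152350-125152649 on the plus strand and the Kcnj1 window chr9:32393735-32394034 on the plus strand. Egf had another window, chr3:129725037-129725336 on the minus strand, which is not shown. The annotated start in the Kcnj1 window, at 32393985, lies inside the gene's span, which begins at 32372493 in GENCODE.

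Umod: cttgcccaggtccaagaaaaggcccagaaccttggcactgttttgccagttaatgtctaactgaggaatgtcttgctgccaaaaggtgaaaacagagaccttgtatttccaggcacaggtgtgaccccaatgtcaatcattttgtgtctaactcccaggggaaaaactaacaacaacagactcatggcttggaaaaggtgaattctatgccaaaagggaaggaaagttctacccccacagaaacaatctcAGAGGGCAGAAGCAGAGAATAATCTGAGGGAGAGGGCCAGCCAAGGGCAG
Egf: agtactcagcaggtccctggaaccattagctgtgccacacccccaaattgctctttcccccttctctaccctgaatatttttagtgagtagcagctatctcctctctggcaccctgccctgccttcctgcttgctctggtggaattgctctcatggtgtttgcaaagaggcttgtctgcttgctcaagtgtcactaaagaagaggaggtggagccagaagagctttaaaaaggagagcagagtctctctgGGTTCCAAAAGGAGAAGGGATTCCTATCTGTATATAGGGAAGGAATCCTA
Slc12a1: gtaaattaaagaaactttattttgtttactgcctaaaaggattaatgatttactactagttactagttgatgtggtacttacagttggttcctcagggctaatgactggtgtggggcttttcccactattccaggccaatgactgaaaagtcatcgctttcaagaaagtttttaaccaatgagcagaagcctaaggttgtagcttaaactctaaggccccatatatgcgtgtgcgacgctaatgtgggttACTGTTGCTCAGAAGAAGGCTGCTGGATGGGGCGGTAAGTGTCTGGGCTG
Kcnj1: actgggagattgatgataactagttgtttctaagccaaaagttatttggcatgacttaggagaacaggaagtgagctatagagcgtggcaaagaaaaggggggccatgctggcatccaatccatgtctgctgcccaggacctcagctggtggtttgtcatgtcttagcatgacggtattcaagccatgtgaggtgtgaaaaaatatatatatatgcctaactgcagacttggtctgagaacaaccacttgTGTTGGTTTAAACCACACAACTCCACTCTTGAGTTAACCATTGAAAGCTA

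The letters of 4 short motifs were searched on both strands in all 10 windows of the 9 genes, and no motif contains another. The HNF1 half-site GTTAAT was found in 1 of the 9 genes, Umod, starting 202 bases before the annotated start, and 7.1% of all 32851 promoter windows hold it. The cAMP response element half-site TGACG was found in Kcnj1, 81 bases before the start, and in Aqp2, while 20.8% of all windows hold it. The steroid receptor half-site TGTTCT was found in Kcnj1, where it lies on the opposite strand 190 and 14 bases before the start, and in Aqp2, while 19.0% of all windows hold it. The TATA box letters TATAAA were found in Slc12a3 and Aqp3, 32 and 29 bases before the start, against 13.6% of all windows. These are matches of letters only.

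None of the 10 genes passed the test between knockdown and control, and the 2 with the smallest p stood on opposite sides. Kcnj1 was higher and Egf lower in every knockdown library than in any control library. Over all 12958 genes 3.02% passed an adjusted p of 0.05 (limma, Benjamini-Hochberg), 0.996% higher and 2.02% lower in knockdown, so 0 of 10 is not far from what that share gives. At an unadjusted p under 0.05 the count was 2 of 10, beside 18.4% of all genes. Groups that did not overlap made up 1 of 10 on the higher side, beside 10.8% of all genes, and 1 of 10 on the lower side, beside 7.55%. Adjusted p over the 10 genes ran from 0.0841 to 0.977 (limma, Benjamini-Hochberg), and 5 log2 fold changes were positive and 5 negative, with a median of 0.07 against 0.02 over all genes. With title style as a covariate 0 of 10 passed as well, beside 1.47% of all genes.

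**Figure D1:**
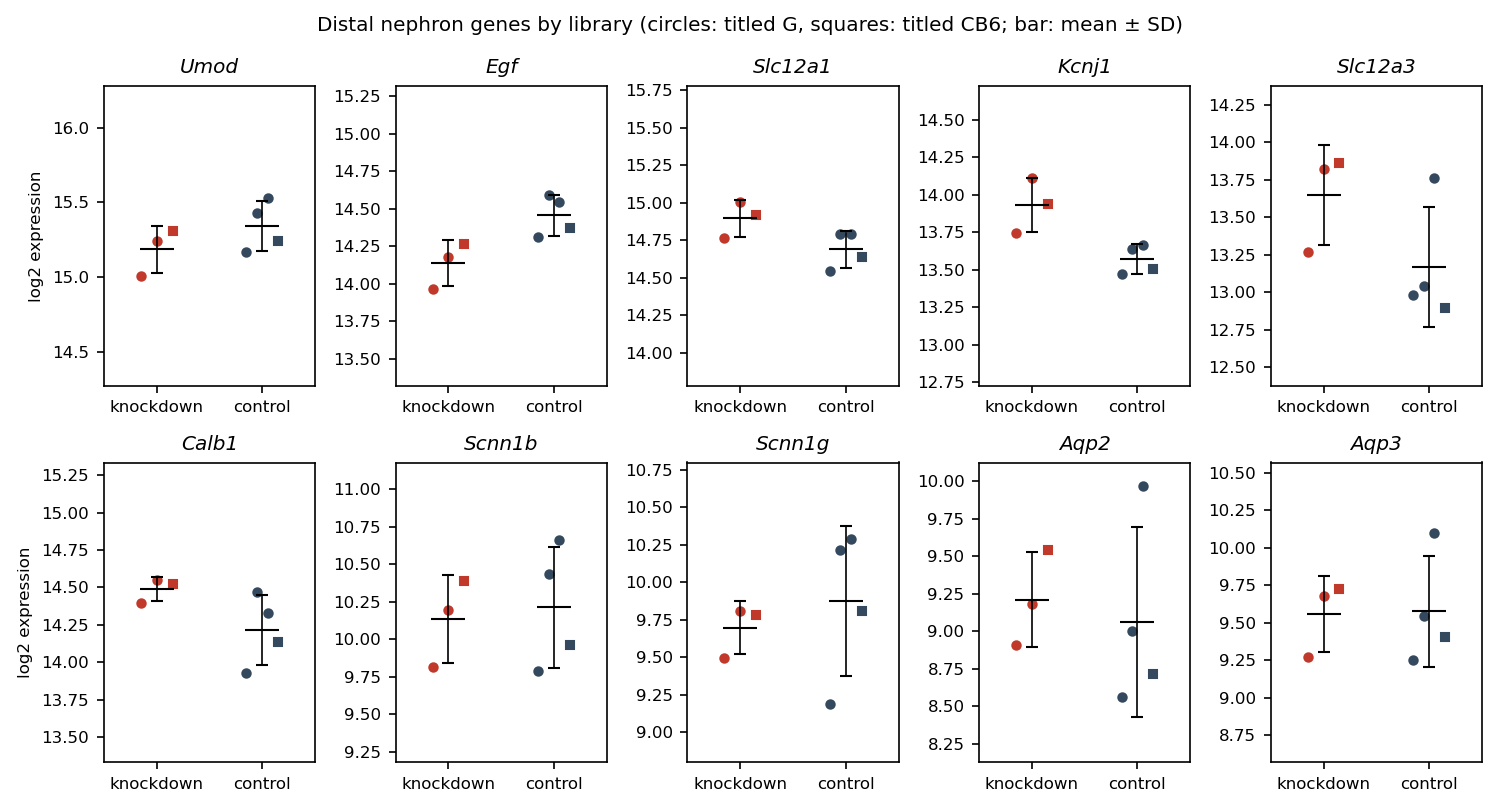
Log2 expression (y axis, each panel spanning the same range) of the 10 genes in knockdown and control libraries, 1 point per animal, with circles for libraries titled G, squares for those titled CB6, and bars for mean ± SD (n = 3 and n = 4). The groups of Kcnj1 and Egf do not overlap, while Aqp2 spreads over 1.41 among controls.

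Umod, which encodes uromodulin, the main protein of normal urine, is made in the thick ascending limb. Its log2 expression was 15.01, 15.24 and 15.31 in knockdown libraries against 15.17, 15.43, 15.53 and 15.24 in control libraries. The lowest library was a knockdown and the highest a control, and the groups overlapped. Between groups the log2 fold change was -0.15 (SE 0.12, 95% interval -0.42 to 0.11; adjusted p = 0.532 by limma with Benjamini-Hochberg), and the two-sided exact permutation p was 0.343. The difference was -0.25 among the G-titled libraries and 0.07 in the CB6 pair, so its sign was not shared. The gene lies on GRCm38 chromosome 7, 119462711 to 119479282, minus strand.

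Egf encodes the precursor of epidermal growth factor, which the thick ascending limb and distal convoluted tubule make and which acts on magnesium uptake. It had log2 expression of 13.97, 14.18 and 14.27 in knockdown libraries against 14.31, 14.60, 14.54 and 14.37 in control libraries. Each knockdown library lay below each control library, the nearest values being 14.27 and 14.31. Its log2 fold change was -0.32 (SE 0.10, 95% interval -0.55 to -0.09), which is 0.802 of the control level. This missed the threshold over all genes (adjusted p = 0.137 by limma with Benjamini-Hochberg). Its exact permutation p of 0.0571 is the lowest this two-sided test can give with 3 against 4 libraries (the smaller tail doubled over 35 splits), so no gene could reach 0.05 by it. The difference was -0.41 among the G-titled libraries and -0.11 in the CB6 pair. Egf lies on chromosome 3, 129677565 to 129755316, minus strand.

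Slc12a1, the sodium, potassium and chloride cotransporter that loop diuretics block, had log2 expression of 14.76, 15.01 and 14.92 in knockdown libraries against 14.54, 14.79, 14.79 and 14.63 in control libraries. The lowest knockdown library lay just under the highest 2 controls, whose deposited values were identical to every digit. Slc12a1 differed by 0.20 on the log2 scale (SE 0.09, 95% interval -0.01 to 0.42; adjusted p = 0.292 by limma with Benjamini-Hochberg; exact permutation p = 0.171). Its difference was 0.18 among the G-titled libraries and 0.28 in the CB6 pair. Slc12a1 lies on chromosome 2, 125152505 to 125230002, plus strand.

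Kcnj1, the inward rectifier potassium channel ROMK of the thick limb and of principal cells, had log2 expression of 13.75, 14.11 and 13.94 in knockdown libraries against 13.47, 13.64, 13.67 and 13.50 in control libraries. All knockdown libraries lay above all control libraries, with 13.75 the lowest knockdown and 13.67 the highest control value. This is a log2 fold change of 0.36 (SE 0.09, 95% interval 0.14 to 0.58), a 1.28-fold level, whose adjusted p of 0.0841 missed the threshold (limma, Benjamini-Hochberg). The two-sided exact permutation test gave 0.0571, its floor. Kcnj1 differed by 0.34 in the G-titled libraries and by 0.44 in the CB6 pair. It lies on chromosome 9, 32372493 to 32399197, plus strand.

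Slc12a3, the thiazide-sensitive sodium chloride cotransporter of the distal convoluted tubule, had the largest log2 fold change of the 10 and one of the wider spreads. It stood at 13.27, 13.82 and 13.86 in knockdown libraries against 12.98, 13.04, 13.76 and 12.89 in control libraries. Control replicate 3 lay within the knockdown range and the other three controls below it. The log2 fold change was 0.48 (SE 0.22, 95% interval -0.03 to 0.99; adjusted p = 0.296 by limma with Benjamini-Hochberg; exact permutation p = 0.114). Without control replicate 3 it was 0.68, with an adjusted p of 0.0705 (limma, Benjamini-Hochberg). The difference was 0.28 among the G-titled libraries and 0.97 in the CB6 pair. Slc12a3 lies on chromosome 8, 94329201 to 94366214, plus strand.

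Calb1 encodes calbindin, the calcium buffer of distal convoluted and connecting tubule cells. Its log2 expression was 14.40, 14.55 and 14.52 in knockdown libraries against 13.93, 14.47, 14.33 and 14.14 in control libraries. Only control replicate 2 reached into the knockdown range. For Calb1 the log2 fold change was 0.27 (SE 0.12, 95% interval -0.01 to 0.56; adjusted p = 0.285 by limma with Benjamini-Hochberg; exact permutation p = 0.114), with 0.23 among the G-titled libraries and 0.38 in the CB6 pair. Calb1 lies on chromosome 4, 15881264 to 15908064, plus strand.

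The epithelial sodium channel of the connecting tubule and collecting duct is built of alpha, beta and gamma subunits, and the genes of the beta and gamma subunits overlapped between groups. Scnn1b had log2 expression of 9.81, 10.19 and 10.39 in knockdown libraries against 9.79, 10.44, 10.66 and 9.96 in control libraries. Its log2 fold change was -0.08 (95% interval -0.58 to 0.42; adjusted p = 0.890 by limma with Benjamini-Hochberg), turning to 0.08 without knockdown replicate 1 and 0.07 without control replicate 3. Scnn1g stood at 9.49, 9.81 and 9.79 in knockdown libraries against 9.19, 10.21, 10.29 and 9.81 in control libraries. Its controls spanned 1.10 on the log2 scale and enclosed all knockdown values. The log2 fold change was -0.18 (95% interval -0.73 to 0.37; adjusted p = 0.750 by limma with Benjamini-Hochberg), and -0.41 without control replicate 1 and -0.04 without control replicate 3. Exact permutation p was 0.743 for Scnn1b and 0.571 for Scnn1g. Both lie on chromosome 7, plus strand, at 121865038 to 121918514 and 121734479 to 121768475. Scnn1a, the gene of the alpha subunit, was named after its values were seen, and its log2 fold change was 0.16 (95% interval -0.25 to 0.57; adjusted p = 0.701 by limma with Benjamini-Hochberg).

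Aqp2, the apical water channel that vasopressin moves to the membrane of principal cells, had the widest spread of the 10 genes. Its log2 expression was 8.91, 9.18 and 9.54 in knockdown libraries against 8.56, 9.002, 9.97 and 8.71 in control libraries. Controls held both the lowest and the highest value and spanned 1.41, so that the 95% interval of the log2 fold change of 0.15 ran from -0.57 to 0.87 (adjusted p = 0.851 by limma with Benjamini-Hochberg; exact permutation p = 0.743). Without control replicate 3 the log2 fold change was 0.45, and among the G-titled libraries it was -0.13. Aqp2 lies on chromosome 15, 99579055 to 99584547, plus strand.

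Aqp3, the basolateral water and glycerol channel through which that water leaves, stood at 9.27, 9.68 and 9.73 in knockdown libraries against 9.25, 9.54, 10.10 and 9.41 in control libraries. Control replicate 3 was again the highest library. The log2 fold change was -0.02 (95% interval -0.47 to 0.44; adjusted p = 0.977 by limma with Benjamini-Hochberg; exact permutation p = 0.971). It was 0.16 without control replicate 3 and 0.13 without knockdown replicate 1. Aqp3 lies on chromosome 4, 41092722 to 41098183, minus strand.

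**Figure D2:**
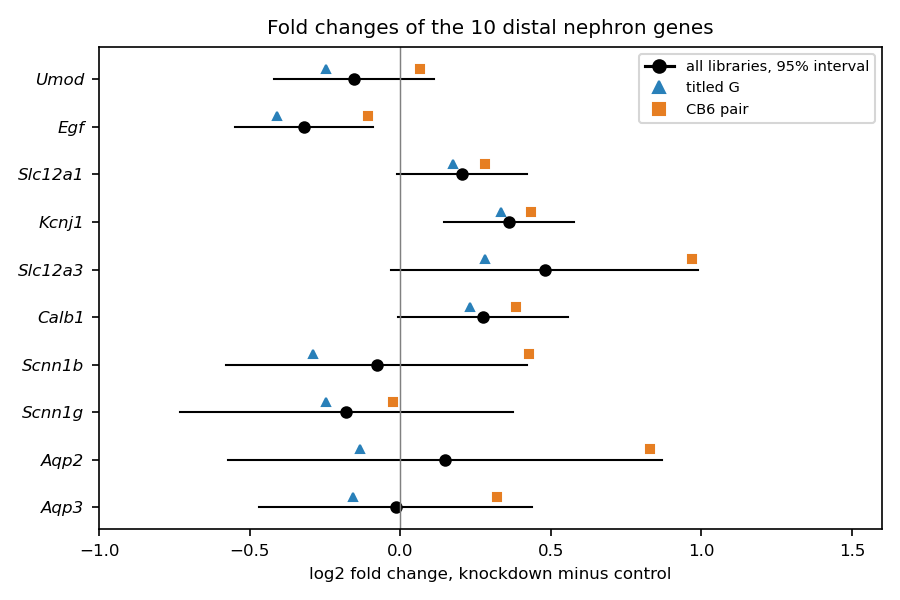
Log2 fold change, knockdown minus control (x axis), of the 10 genes (y axis), with black points and lines for the estimate and its 95% interval over all libraries, triangles for the G-titled libraries and squares for the CB6 pair, which holds 1 library of each group. In this fit, which leaves out title style, the intervals of Kcnj1 (0.14 to 0.58) and Egf (-0.55 to -0.09) leave out 0. For Umod, Scnn1b, Aqp2 and Aqp3 triangle and square stand on opposite sides of 0.

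Per exon length, the thick limb and calbindin transcripts stood well above those of the collecting duct. On the scale of log2 expression per kilobase, averaged over 7 libraries, the order was Umod at 13.81, Slc12a1 at 12.25, Calb1 at 12.06, Kcnj1 at 11.99, Egf at 10.82, Slc12a3 at 9.90, Scnn1b at 8.78, Aqp3 at 8.70, Aqp2 at 8.62 and Scnn1g at 8.22. Umod lay above Slc12a1 by 1.56 ± 0.20, Kcnj1 above Egf by 1.16 ± 0.37, Egf above Slc12a3 by 0.93 ± 0.50 and Slc12a3 above Scnn1b by 1.12 ± 0.36 on that scale, each in 7 of 7 libraries (SD, n = 7). The smaller step of Slc12a1 over Calb1 was 0.19 ± 0.10, also in 7 of 7 libraries. Calb1 and Kcnj1 differed by 0.07 ± 0.13 and changed places between libraries, as did Scnn1b, Aqp3, Aqp2 and Scnn1g, whose neighbouring steps kept their order in 6, 4 and 5 of 7 libraries. Exon length is the union of annotated exons, 11.3 kb for Egf and 11.1 kb for Slc12a3, so transcripts shorter than that union would place these genes higher.

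Within each group the 10 genes mostly lay on the same side of their group means in a given library. In knockdown replicate 3 and control replicate 3 all 10 lay above the mean of their group, with median deviations of 0.12 and 0.30 on the log2 scale. In knockdown replicate 1, control replicate 1 and control replicate 4 all 10 lay below it, with medians of -0.19, -0.24 and -0.09. Knockdown replicate 2 had 9 of 10 above, and control replicate 2 had 7 of 10. Over all genes the share above the group mean ran from 45.7 to 52.6% in these libraries. Knockdown replicate 3 and control replicate 4 are the CB6 pair, whose deviations mirror each other across genes, so their 2 counts are not separate observations. Deviations from a group's own mean also cancel within that group, so the counts of its libraries depend on each other. Sizes differed between genes, also within a segment: in control replicate 3 Aqp2 deviated by 0.91, Slc12a3 by 0.59, Aqp3 by 0.52 and Scnn1b by 0.45, but Calb1 by 0.12, Kcnj1 by 0.10 and Egf by 0.09. What these shared shifts come from was not tested.

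**Figure D3:**
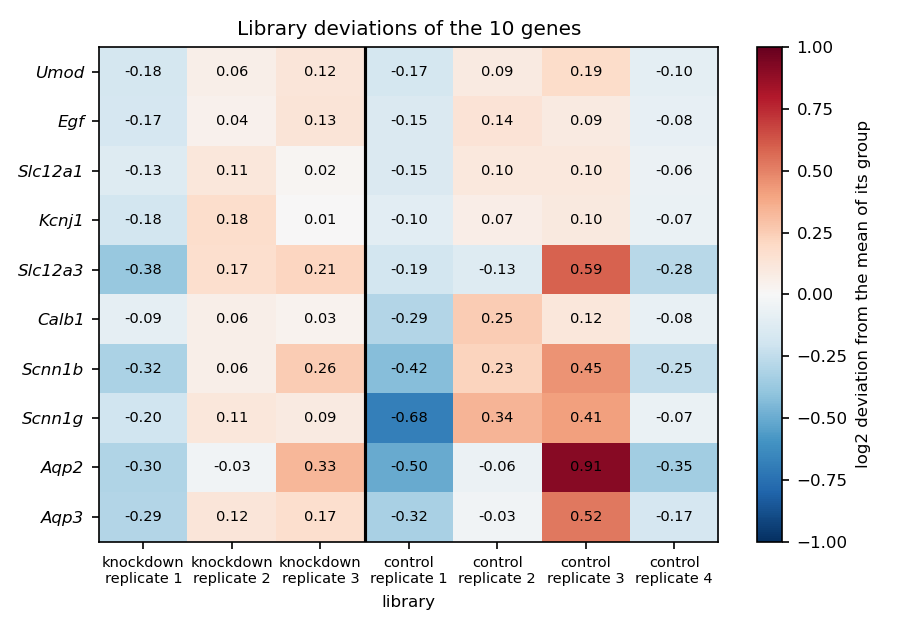
Deviation of each library from the mean of its own group on the log2 scale (colour and printed number) for the 10 genes (rows) in 3 knockdown libraries (left of the line) and 4 control libraries (right). Columns are mostly of one colour, and the extremes are Aqp2 in control replicate 3 (0.91) and Scnn1g in control replicate 1 (-0.68).

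Differences between genes within a library do not move with such shared shifts where both genes shift alike, and 8 pairs were compared between groups. These are differences of deposited log2 values, not per length, so that their change between groups carries the comparison and not which gene is higher. In 3 of the 8 the groups did not overlap, each at the floor of the exact permutation test, p = 0.0571, and at 0.152 after Benjamini-Hochberg adjustment over the 8 pairs. All 3 were among thick ascending limb genes and share Umod or Slc12a1, so they are not separate results. The other 5 overlapped, with exact permutation p from 0.286 to 0.457. All 8 pairs were chosen with earlier results of these data known.

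Umod stood above Slc12a1 by 0.25, 0.24 and 0.39 on the log2 scale in knockdown libraries, against 0.63, 0.64, 0.74 and 0.61 in control libraries. The mean difference was 0.29 ± 0.09 for knockdown and 0.65 ± 0.06 for control libraries (SD, n = 3 and n = 4), a ratio of deposited values of 1.23 in knockdown and 1.57 in control libraries. The groups differed by -0.36, by -0.42 among the G-titled libraries and by -0.22 in the CB6 pair. When Slc12a1 was subtracted from every other gene, 19.2% of 12957 genes lay below all controls in this way, so the pattern is common relative to Slc12a1.

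Kcnj1 lay below Slc12a1 in every library, by -1.02, -0.90 and -0.98 in knockdown against -1.07, -1.15, -1.12 and -1.13 in control libraries. Each knockdown difference was smaller in size than any control difference, with means of -0.96 ± 0.06 (SD, n = 3) and -1.12 ± 0.03 (SD, n = 4). The groups differed by 0.16, by 0.16 among the G-titled libraries and by 0.15 in the CB6 pair. Relative to Slc12a1, 0.81% of 12957 genes were higher in every knockdown library than in any control library, Kcnj1 among them. Slc12a1 itself differed by 0.20, and 19.2% of genes lay below all controls relative to it, so this share depends on the reference gene. Without a reference, 10.8% of all genes lay above all controls, Kcnj1 again among them.

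Umod stood above Egf by 1.05, 1.06 and 1.04 in knockdown libraries against 0.86, 0.84, 0.98 and 0.87 in control libraries. This difference between groups of 0.17 was 0.16 among the G-titled libraries and 0.17 in the CB6 pair. Relative to Egf, 44.0% of 12957 genes lay above all controls, so the pattern is common relative to Egf. A further 3 pairs were formed after the values of the tested pairs were seen and are given without a test. Kcnj1 minus Egf was -0.21 ± 0.13 for knockdown and -0.89 ± 0.05 for control libraries (SD, n = 3 and n = 4). On the same footing Umod minus Kcnj1 was 1.26 ± 0.12 in knockdown and 1.77 ± 0.07 in control, and Egf minus Slc12a1 was -0.76 ± 0.09 in knockdown and -0.23 ± 0.03 in control. None of these overlapped between groups, which their choice favours.

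**Figure D4:**
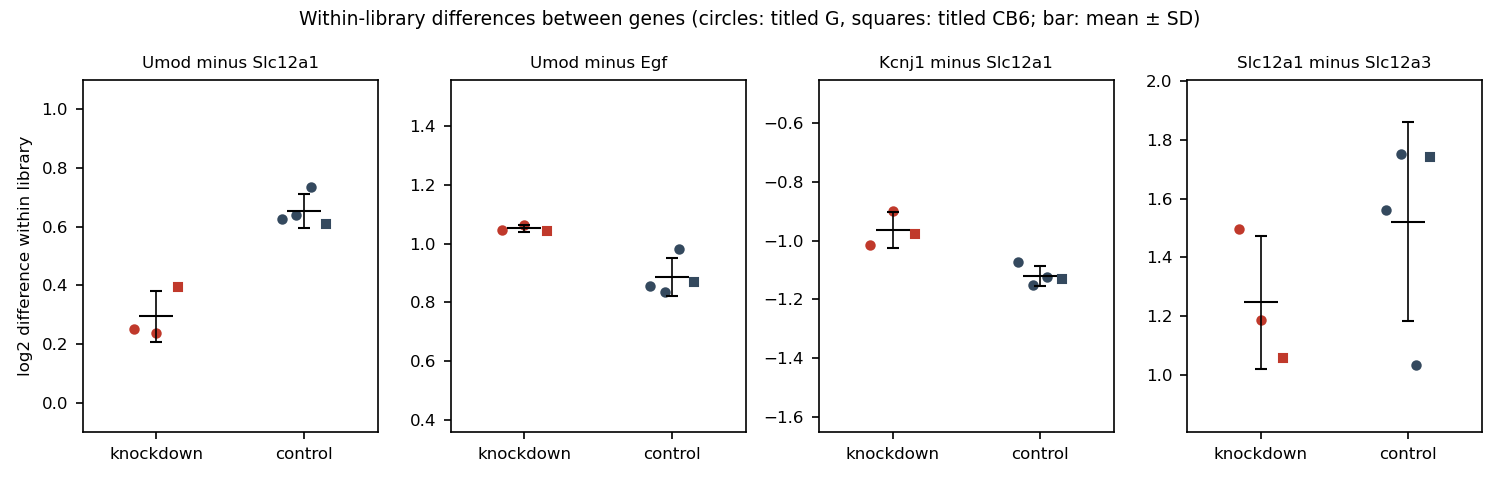
Log2 difference between genes within each library (y axis, same span in each panel) for 4 of the 8 pairs, 1 point per animal, with circles for libraries titled G, squares for CB6 and bars for mean ± SD (n = 3 knockdown, n = 4 control). The first 3 panels show groups that do not overlap, such as Umod minus Slc12a1 at 0.24 to 0.39 in knockdown and 0.61 to 0.74 in control libraries, and the fourth, Slc12a1 minus Slc12a3, shows groups that do.

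The remaining pairs crossed segments or joined partners of one cell type. Slc12a1 exceeded Slc12a3 by 1.25 ± 0.23 for knockdown and 1.52 ± 0.34 for control libraries (SD, n = 3 and n = 4), with control replicate 3 at 1.03 the lowest of all. Calb1 minus Slc12a3 was 0.84 ± 0.25 in knockdown and 1.05 ± 0.37 in control libraries. The 2 water channels, Aqp2 minus Aqp3, were at -0.35 ± 0.16 in knockdown and -0.51 ± 0.27 in control, and Aqp2 minus Scnn1g at -0.49 ± 0.21 in knockdown and -0.82 ± 0.42 in control. The sodium channel subunits Scnn1b minus Scnn1g were at 0.44 ± 0.15 in knockdown and 0.33 ± 0.20 in control. Their difference between groups was 0.10 over all libraries and -0.04 among the G-titled libraries.

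Among 113 other measured genes of distal salt and water transport, in 7 lists, 0 passed the test (limma, Benjamini-Hochberg), also with title style as a covariate. At an unadjusted p under 0.05 there were 30 of them, or 26.5%, beside 18.4% of all genes, and 76 of 113 log2 fold changes were positive with a median of 0.08, beside 56.1% positive and a median of 0.02 over all genes. Of 20 other thick ascending limb genes 9 were positive (median -0.01), and the most highly expressed were Kcnj16, a basolateral potassium channel subunit, at -0.01, and Fxyd2, the sodium pump's gamma subunit, at 0.21. Of 17 other distal convoluted tubule genes 15 were positive (median 0.19), led in level by Slc8a1, the sodium and calcium exchanger, at 0.16 and Tmem52b at 0.19. Of 18 other principal cell and connecting tubule genes 7 were positive (median -0.10), and Npnt, the matrix protein nephronectin, and Adcy6, an adenylyl cyclase, differed by -0.09 and 0.10. Among knockdown libraries Kcnj16 was highest in replicate 1 (15.14), and Npnt was highest of all libraries in control replicate 1 (13.62). In both libraries all 10 distal genes lay below their group means. Whether the transcripts of Kcnj16 and Npnt come from the listed segments was not tested. Avpr2, the vasopressin receptor of these cells, was not analysed here.

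Of 22 genes of WNK kinases and aldosterone action 17 were positive (median 0.09), and Wnk1, a kinase upstream of both cotransporters, was at 15.79, 16.09 and 15.996 in knockdown against 15.57, 15.71, 15.71 and 15.55 in control libraries, groups that did not overlap (a log2 fold change of 0.32; adjusted p = 0.137 by limma with Benjamini-Hochberg). Nedd4, a ubiquitin ligase, differed by 0.14. Of 8 genes of the sodium pump and its regulators 6 were positive (median 0.17), and Atp1b1, of a beta chain, differed by 0.19. Of 19 genes of vasopressin and cAMP signalling 13 were positive (median 0.08), with the G protein gene Gnas at -0.10 and the kinase anchor Akap13 at 0.11. Of 15 distal tubule transcription factors 14 were positive (median 0.20), with Tfcp2l1 at 0.12 and the nuclear receptor Esrrg at 0.21. The summed share of the WNK and aldosterone list did not overlap between groups, at 0.728 to 0.795% in knockdown and 0.650 to 0.705% in control libraries. Wnk1 was the highest in mean of that list. The sodium pump list was likewise higher in every knockdown library, while the summed shares of the other salt and water lists overlapped.

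Some markers of other cell types passed the test, while the summed shares of the intercalated, proximal and podocyte lists overlapped between groups. A summed share weighs genes by level, so a few high genes can set it. By sign, 15 of 19 intercalated markers were positive (median 0.21). Of 26 proximal markers 22 were negative (median -0.32), as were 18 of 22 podocyte markers (median -0.26). Over all 12958 genes 56.1% were positive (median 0.02), and 0.996% passed higher and 2.02% lower in knockdown (limma, Benjamini-Hochberg). Of 19 intercalated cell markers, the acid-base cells that share the collecting duct with principal cells, 4 rose: Slc4a1 (0.86), Kit (0.59), Aqp6 (1.12) and Atp6v1g3 (0.56), of which 1, Slc4a1, passed with title style as a covariate. With a library left out in turn, Slc4a1 lost the call in 3 of 7 fits, Kit and Aqp6 in 4 and Atp6v1g3 in 6. The summed share of that list was 0.179 to 0.187% in knockdown and 0.148 to 0.203% in control libraries. The proximal tubule list of 26 held 10 that fell, with the smallest p for the cytochrome Cyp2e1 (-3.26), the urate carrier Slc22a12 (-2.26) and Cyp4b1 (-1.06), and 1 that rose, Pck1 of gluconeogenesis (1.49), with a summed share of 1.98 to 2.51% in knockdown and 2.22 to 2.88% in control libraries. Of 22 podocyte markers 4 fell, among them Thsd7a (-0.98), Magi2 (-0.70) and Vegfa (-0.51), and Podn rose (0.69), with a summed share of 1.89 to 2.18% in knockdown and 1.80 to 2.44% in control libraries. Fitting title style left 8 proximal markers lower and 1 higher, and 2 podocyte markers lower and 1 higher, with Vegfa no longer called (adjusted p = 0.0543 by limma with Benjamini-Hochberg). With a library left out, Vegfa lost the call in 4 of 7 fits, Podn in 3, Thsd7a in 1 and Magi2 in 0. Their part in the values of the 10 genes was not tested.

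Of 13 mesangial, smooth muscle and renin cell markers 2 fell, Sfrp2 (-0.98) and Serpine2 (-0.39). None of 16 endothelial, 11 thin limb, 8 parietal, 6 macula densa or 6 immune markers passed (limma, Benjamini-Hochberg), with medians of -0.23, -0.00, -0.06, 0.04 and 0.06. At an unadjusted p under 0.05 these lists held 5, 2, 1, 1 and 0 genes. In the same order 15, 6, 4, 3 and 2 of their log2 fold changes were negative, beside 56.1% positive over all genes. The endothelial list was thus nearly all on the lower side. Among the most highly expressed of these markers were Plat (-0.09) and Ehd3 (-0.23), Aqp1 (-0.00), Cd24a (-0.16) and Pax8 (0.12), Robo2 (-0.21) and Nos1 (0.19), and Ptprc (-0.26) with Csf1r (0.00). Pax8 was also listed among distal tubule transcription factors, and Aqp1 among proximal markers. Which cells the transcripts of these markers come from was not tested. The single red cell marker measured, Alas2, fell (-0.54). The calls of Sfrp2, Serpine2 and Alas2 ended once title style was fitted, and in 6 of 7 fits with a library left out.

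Profiles over the 7 libraries were compared by the root mean square difference after centring each gene on its own mean, a measure of likeness that takes in both groups. Slc12a3, with an SD of 0.43 over the libraries, was nearest, outside the 10 genes, to Wnk4 (0.128) and Ptprv (0.130), and Kcnj1, with an SD of 0.23, to Wnk1 (0.034) and Naif1 (0.039). Slc12a1 was nearest to Kdm1b and Fam3a (0.026 and 0.027), Calb1 to Etv5 and Lurap1 (0.029 and 0.044), and Umod to Plxnb3 and Pomgnt1 (0.029 and 0.030). Egf was nearest to Narfl and Syngr2 (0.049 and 0.055), Aqp2 to the non-coding RNAs Rmrp and Rpph1 (0.116 and 0.126), and Aqp3 to Lzts2 and Mapre3 (0.049 and 0.052). Scnn1b was nearest to Mfsd12 and Car15 (0.073 and 0.089), and Scnn1g to Pgam2 and Ptges (0.085 and 0.121). Among the 10 genes themselves, Kcnj1 and Slc12a1 were each other's nearest (0.087), as were Umod and Egf (0.093) and Aqp3 and Scnn1b (0.125).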

How the data were processed

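The authors deposited 1 table per library, pairing gene symbols with values on a log scale of unstated base, taken here as log2. Another base would scale log fold changes by a constant. Fold ratios, summed shares, and levels and ranks per kilobase rest on log2 and would change in other ways. Alignment was by BWA to mm10, per the submitters' processing notes. The sources used here give neither counting, strand use and normalization nor any batch adjustment. Depth and counting error are unknown, and p-values measure the spread between libraries, 1 per animal.

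Knockdown and control were compared with limma 3.58.1 (R 4.3.3, intensity trend) on the deposited log2 values of all genes, with Benjamini-Hochberg adjustment, and the fit was tested on simulated data. Requiring values over the lowest in the tables in 3 or more libraries removed 0 rows. Exact permutation tests used scipy 1.17.1. Exon lengths and positions came from GENCODE M21 (GRCm38, the assembly of mm10). A level per kilobase takes the values as not yet divided by length. Replicate numbers follow accession order and pair nothing.

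Deviations of the 2 CB6 libraries from their group means mirrored each other (r = -0.958 across genes, which are not independent). Had a batch been adjusted for before deposit, the 5 residual degrees of freedom would be 1 too many and p-values too small, so title style was also fitted, with 4. Control replicates 2 and 3 held identical values in 137 genes, against 16 to 26 in other pairs of G-titled libraries, and were kept as 2 libraries.

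The genes, lists and tests were chosen with earlier results of these data known. Beside the 10 genes, those named are up to 4 genes of each list past the threshold or else its 2 highest in mean, and the 2 nearest profiles of each. Results of 3 genes are not reported here. Alternatives changed the normalization (quantile or median), the filter (none, or without the lowest genes by mean), the trend, a pseudocount of 16, title style, the threshold and the libraries entered.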

Additional observations from a re-analysis of the deposited data

Results flagged for a closer look

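Among the 4 control libraries, control replicate 3 stood apart for Slc12a3, its gap to the next library being 0.832 of the whole range, just past the limit of Dixon's test for 4 values. In all, 55 sets of control values were examined, and chance flags about 1 in 20 such sets.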

How the results depend on the processing

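No member passed in any of 15 alternative settings at an adjusted p of 0.05 (limma, Benjamini-Hochberg), the lowest being 0.0625 for Kcnj1 without knockdown replicate 1. At an adjusted p of 0.1 the count was 1, Kcnj1. With title style as a covariate the adjusted p was 0.168 for Kcnj1 and 0.251 for Egf (limma, Benjamini-Hochberg). With the G-titled libraries alone it was 0.460 for Kcnj1 and 0.367 for Egf (limma, Benjamini-Hochberg). Of 150 values compared, 7 changed sign. Aqp2 turned to -0.13 with the G-titled libraries alone and ran from -0.13 to 0.45 over all settings, and from -0.0185 to 0.4517 with a library left out. With a library left out Aqp3 ran from -0.12 to 0.16 and Scnn1b from -0.22 to 0.081. Umod, Egf, Slc12a1, Kcnj1, Slc12a3, Calb1 and Scnn1g kept their direction in all 15. Of the pairs, Scnn1b minus Scnn1g turned to -0.0443 with the G-titled libraries alone, and the other 7 kept their direction in 9 settings each.

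Over all genes, 391 passed, with 191 under title style as a covariate, 40 with the G-titled libraries alone, 846 at an adjusted p of 0.1, 124 at 0.01 and 134 to 480 with a library left out. The cause was not tested. Without read counts, what depth limits cannot be stated, and 3 against 4 animals leave wide intervals, from -0.57 to 0.87 on the log2 scale for Aqp2, the widest of the 10.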
